A study of Rattus norvegicus with 7 samples.

Results

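The 56 genes described here encode the machinery of oxidative phosphorylation in the rat. They were chosen by name, as every probe set of the array whose annotation gave a single gene symbol beginning with Nduf, Sdha to Sdhd, Uqcr, Cox4 to Cox8 or Atp5, together with Cyc1 and Cycs. This rule found 102 probe sets of the 8799 in the deposited table, and for each gene the probe set with the highest mean over the 7 arrays was used. The array measured 4736 genes with a symbol of their own in all. By their known roles, 24 of the members belong to complex I, 1 to complex II, 4 to complex III, 14 to complex IV and 9 to complex V. Among these, Ndufa4l2 was placed in complex IV as a paralogue of Ndufa4. The other 4, Atp5if1, Ndufaf3, Sdhaf2 and the pseudogene Cox6c-ps1, matched the rule by name and are not subunits. Cytochrome c itself (Cycs) had no probe set with a single symbol and was not analysed here.

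The cells were alveolar type 2 cells, the surfactant-making epithelium of the lung, taken by immuno-adsorption from male Sprague Dawley rats. The 3 ethanol rats had received a Lieber-DeCarli liquid diet for 6 weeks in which ethanol gave 36% of calories, and the 4 control rats an isocaloric liquid diet without it. The design text gives as many animals as there are arrays in each group, and their age is not given. Values are log2 expression, and differences are ethanol minus control on that scale. The surfactant genes Sftpc, Sftpb, Sftpa1 and Sftpd and the transcription factor gene Nkx2-1, 5 of 11 listed type 2 markers that were measured, had array means of 10.10 to 10.40 in the controls and 9.80 to 10.42 with ethanol. In the titles the control arrays have lower array numbers than the ethanol arrays, so diet and that order cannot be told apart.

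Oxidative phosphorylation takes place at the inner mitochondrial membrane. Complexes I and II feed electrons from NADH and succinate to ubiquinone, complex III passes them to cytochrome c, and complex IV (cytochrome c oxidase) to oxygen. The protons pumped on the way return through complex V, the ATP synthase, which makes ATP. Most subunits are encoded in the nucleus, and all members here are. Alveolar type 2 cells are known to be rich in mitochondria, which supply the energy for surfactant synthesis and ion transport.

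No member differed between the diets at limma's adjusted p under 0.05. The count was 0 of 56, in a fit that called 0.149% of the 8740 probe sets tested, and 0 of the members' 102 probe sets passed. At unadjusted p under 0.05 there was 1 member higher with ethanol, where 2.13% of all probe sets were, and 0 lower, where 2.45% were. Among all 4736 genes, 85 were higher and 122 lower. Of the members' 102 probe sets, 1 was higher and 2 lower. These 2 were dimmer probe sets of Atp5if1 (-0.43) and Ndufab1 (-0.33). The 3 probe sets of Ndufab1 ran from -0.33 to -0.03. Without variance moderation 0 of all 8740 probe sets passed, so the count of 0 members there adds nothing. In that fit 2 members had an unadjusted p under 0.05 (3.57%, against 4.20% of all probe sets). The differences ran from -0.35 to 0.43, and 0 members exceeded 0.5 in size. Their 95% confidence intervals reached from -0.93 at the lowest bound (Atp5pb) to 1.06 at the highest (Ndufb11), and the median SE was 0.174. With 7 arrays a true difference anywhere inside a gene's interval remains possible. Before adjustment only the interval of Ndufv3 (0.09 to 0.76) left out 0, and the other members could not be told from unchanged.

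More members lay on the higher than on the lower side. Of the 56, 39 were higher with ethanol and 17 lower, which is 69.6% higher against 46.6% of all 4736 genes. The median difference was 0.11, against -0.014 over all genes. This median rested on single arrays. It was 0.014, with 29 members higher, without ethanol 4, and 0.043, with 34 members higher, without control 2. It was also 0.052 when array spread entered the fit as a covariate and 0.067 with array weights. The 3 ethanol arrays lay above all 4 controls in 3 members (Ndufv3, Cox5a and Cox7a2l), where 2.53% of all probe sets did so, and below all controls in 0, where 2.71% did.

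**Figure D1:**
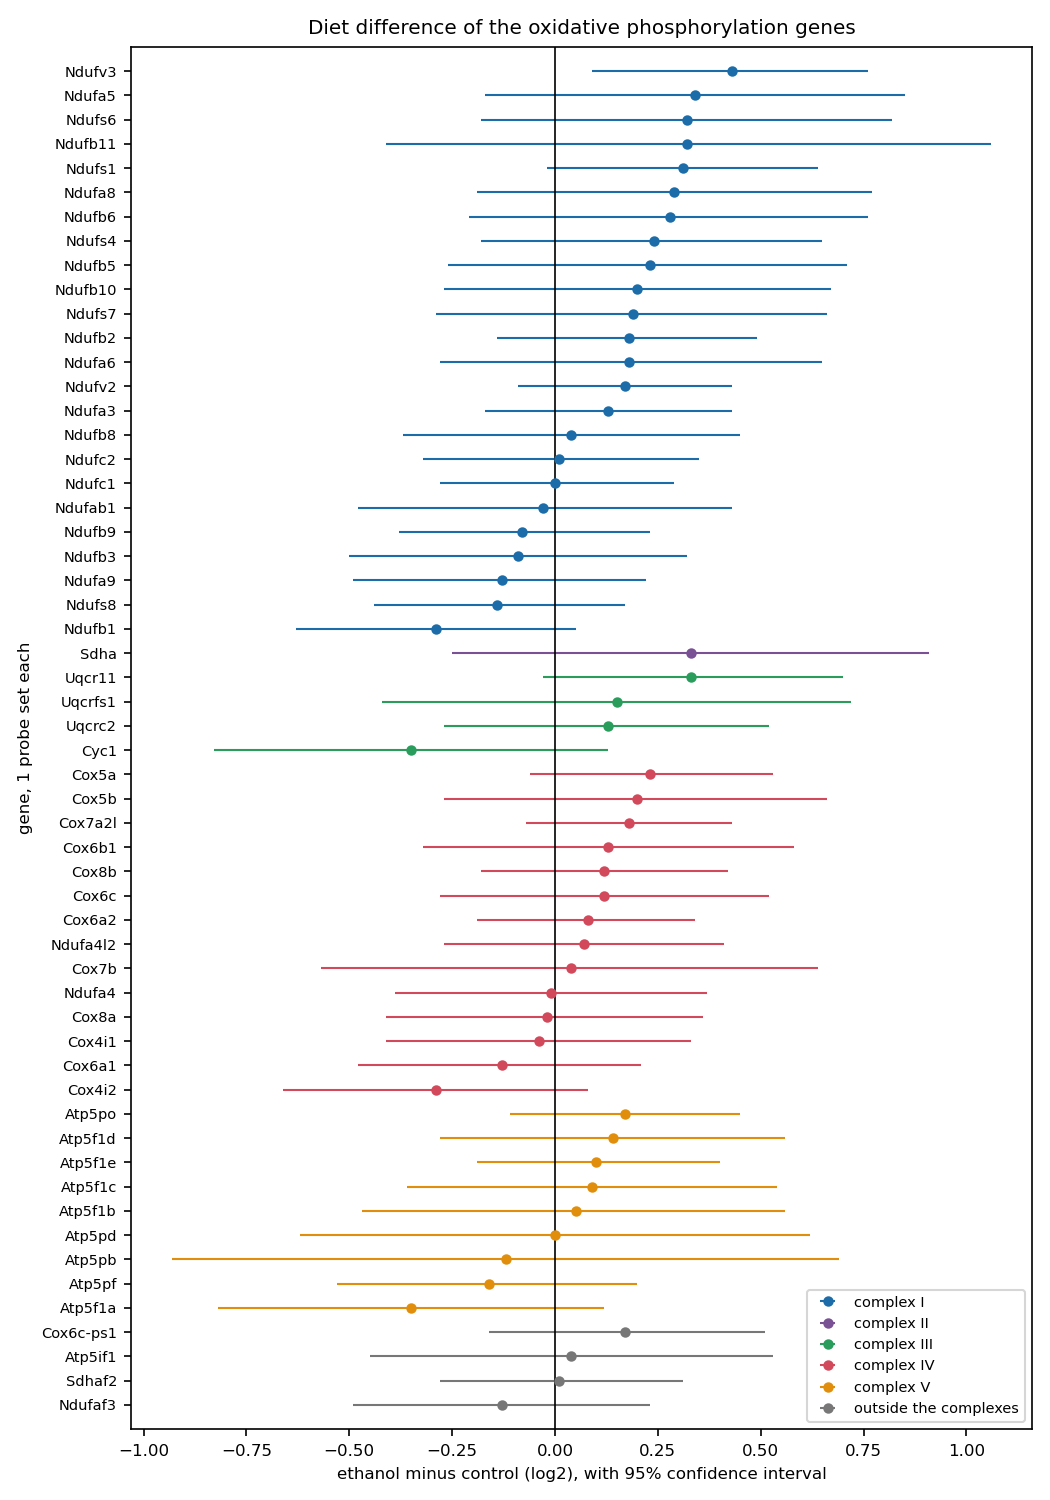
Ethanol minus control difference (log2) of each of the 56 genes with its 95% confidence interval, coloured by complex. Points run from -0.35 (Atp5f1a and Cyc1) to 0.43 (Ndufv3), and the interval of Ndufv3, 0.09 to 0.76, lies apart from 0 before adjustment.

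Promoter sequence was not used by the rule, and each of 3 motifs searched there stood in a minority of the members. RefSeq promoter windows of the GRCr8 assembly, 250 bases before to 50 after the start site, were found for 47 of the members, matched by Entrez identifier. They were searched on both strands for the letters AAGATGGC (YY1), CCGGAAG (ETS factors, which include GABP) and GCGCATGC (NRF1), letters that these factors of mitochondrial gene control are known to bind, and in the windows shown the 3 motifs do not overlap each other. The YY1 letters stood in 11 of 47 windows, or 23.4%, against 3.89% of 4192 measured genes' windows and 3.17% of all 33469 windows. The ETS letters stood in 10, or 21.3%, against 11.9% of the measured genes and 8.75% of all windows. The NRF1 letters stood in 2 (Atp5po and Ndufa6), or 4.26%, against 3.10% and 2.47%. The median GC content of the members' windows was 56%, against 59.7% for the measured genes. In 10 of the members' windows the YY1 letters began between 10 bases before and 30 bases after the start (21.3%, against 2.22% of measured genes). In 9 of these they ran in the direction of the gene, as they did in 82 of 93 such windows of measured genes. That direction is thus common to such matches and not particular to the members. The letters contain ATG, so a match after the start site can also be the start codon, which was not tested. A match of letters is a description and not a bound site.

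The 5 windows below are shown because they place these letters in members of complexes I, IV and V. Each runs from 75 bases before to 20 bases after the start site, 5′ to 3′ along the gene, and capitals mark the motif letters (in Atp5po the NRF1 letters, which match on both strands, and then YY1, in Cox8a the ETS letters in 2 places and then YY1, and in the others YY1).
Atp5po (chr11:44657464-44657558, minus strand): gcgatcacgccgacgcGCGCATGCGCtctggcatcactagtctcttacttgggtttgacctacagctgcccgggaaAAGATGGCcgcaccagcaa
Cox8a (chr1:213833604-213833698, minus strand): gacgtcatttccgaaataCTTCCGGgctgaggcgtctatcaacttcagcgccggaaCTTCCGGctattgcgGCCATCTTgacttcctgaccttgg
Ndufs7 (chr7:10110479-10110573, minus strand): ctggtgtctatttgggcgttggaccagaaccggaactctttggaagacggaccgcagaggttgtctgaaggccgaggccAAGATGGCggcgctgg
Ndufs4 (chr2:47794895-47794989, minus strand): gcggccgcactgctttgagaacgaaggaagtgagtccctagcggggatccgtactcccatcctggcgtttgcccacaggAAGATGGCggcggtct
Ndufa9 (chr4:161374151-161374245, minus strand): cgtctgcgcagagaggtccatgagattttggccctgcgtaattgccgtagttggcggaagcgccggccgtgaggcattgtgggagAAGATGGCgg
The 11 members with the YY1 letters had diet differences from -0.16 to 0.32 with a median of 0.13, and the members without them a median of 0.11.

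Complex I, the NADH dehydrogenase, held the members farthest to the higher side. Of its 24 genes 18 were higher and 6 lower, the median difference was 0.18, and 0 passed the test. Ndufv3, an accessory subunit of the NADH-oxidising flavoprotein arm, lay at 6.69, 6.53, 6.40 and 6.95 in controls 1 to 4 and at 7.07, 6.96 and 7.18 in ethanol 2 to 4. The groups did not overlap, though control 4 and ethanol 3 were only just apart. The difference was 0.43 (SE 0.149, unadjusted p = 0.0182, limma adjusted p = 0.967), and it was 0.35 to 0.53 with each array left out. Its other probe set stood at 0.25, with overlapping groups (4.06 to 4.21 in the controls and 4.17 to 4.64 with ethanol). After the group means were subtracted, the 2 probe sets correlated at -0.07 over the arrays.

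Ndufs1 encodes the largest iron-sulfur subunit of complex I. It was dim, at 3.24, 3.18, 3.43 and 3.46 in the controls and 3.54, 3.46 and 3.92 with ethanol. Ethanol 4 stood above the others, and the difference of 0.31 (SE 0.146, limma adjusted p = 0.967) was 0.17 without that array. Ndufs7, whose protein carries the iron-sulfur cluster next to ubiquinone, lay at 5.28, 4.47, 5.09 and 5.15 in the controls and at 4.85, 5.35 and 5.36 with ethanol. Control 2 was the lowest array here, and the difference of 0.19 was 0.010 without it. Ndufa5, an accessory subunit, lay at 5.06, 4.34, 4.93 and 5.09 against 4.95, 5.01 and 5.64. Again control 2 was lowest and ethanol 4 highest, and the difference of 0.34 was 0.12 without ethanol 4.

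Ndufb11, an accessory subunit of the membrane arm, was among the most variable members, at 4.60, 3.61, 4.16 and 4.50 in the controls and 3.81, 4.64 and 5.17 with ethanol. Its difference of 0.32 (95% confidence interval -0.41 to 1.06) ran from 0.009 without ethanol 4 to 0.69 without ethanol 2. On the lower side, the accessory subunit Ndufb1 lay at 5.51, 5.76, 5.34 and 5.18 against 5.04, 5.17 and 5.26, a difference of -0.29 (SE 0.152, limma adjusted p = 0.967). The ethanol arrays sat at the lower end of the controls and overlapped with control 4. Ndufs8, another iron-sulfur subunit, stood at -0.14 in its brightest probe set, at 6.90, 6.66, 6.90 and 6.56 against 6.64, 6.47 and 6.75, but its 4 probe sets ran from -0.14 to 0.33. No direction can be given for it. The other complex I members had differences from -0.13 (Ndufa9) to 0.32 (Ndufs6, an accessory subunit, at 5.10 to 6.00 in the controls and 5.66 to 6.11 with ethanol).

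Complex II was represented by Sdha, the flavoprotein of succinate dehydrogenase that also serves the tricarboxylic acid cycle. Sdha lay at 4.60, 3.89, 4.40 and 4.83 in the controls (4.43 ± 0.399, SD, n = 4) and at 4.30, 4.75 and 5.23 with ethanol (4.76 ± 0.465, n = 3). The groups overlapped, and the difference of 0.33 (SE 0.258, limma adjusted p = 0.967) was 0.099 without ethanol 4.

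Complex III, the cytochrome bc1 complex, had 3 members higher and 1 lower, with a median difference of 0.14. Uqcrfs1, the Rieske iron-sulfur protein, lay at 6.96, 6.17, 6.88 and 7.15 in the controls and 6.75, 6.67 and 7.40 with ethanol. Control 2 stood below the rest, and the difference of 0.15 was -0.082 without ethanol 4 and -0.076 with array weights. Cyc1, the haem protein cytochrome c1, lay at 5.87, 5.78, 5.65 and 5.06 against 5.09, 5.05 and 5.57, a difference of -0.35 (SE 0.214, limma adjusted p = 0.967). Control 4 sat with the lower ethanol arrays, and the difference was -0.53 without it. Uqcr11, a small subunit, had 2 probe sets that disagreed. The brighter lay at 6.63, 6.17, 6.02 and 6.30 against 6.48, 6.55 and 6.82, a difference of 0.33, while the other stood at -0.32. Uqcrc2, a core subunit without a redox centre, ranged over 5.44 to 6.03 in control arrays and 5.58 to 6.04 in ethanol arrays (0.13).

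In complex IV, 9 members were higher and 5 lower, and the median difference was 0.073. Cox5a, one of the nuclear-encoded subunits around the catalytic core, was dim, at 3.53, 3.70, 3.90 and 3.90 in the controls and 4.09, 3.94 and 3.95 with ethanol. The groups just failed to overlap, with a difference of 0.23 (SE 0.132, unadjusted p = 0.107, limma adjusted p = 0.967). A probe set that carried Cox5a together with another symbol stood at 0.57 (limma adjusted p = 0.967) and was not assigned to the gene. Cox7a2l, a protein that takes part in joining complexes III and IV into supercomplexes, lay at 5.69, 5.72, 5.59 and 5.69 against 5.76, 5.84 and 5.97. Here too the groups did not overlap, with a difference of 0.18 (unadjusted p = 0.131, limma adjusted p = 0.967) and 0.06 in its other probe set. The remaining subunits without an isoform or paralogue partner described below lay between 0.04 (Cox7b) and 0.20 (Cox5b).

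Cytochrome c oxidase has subunits with tissue-typical isoforms, of which Cox4i2, Cox6a2 and Cox8b were measured with their common partners. Ndufa4l2, a paralogue of Ndufa4, was listed with them. Cox4i2 is the isoform of subunit 4 best known from lung and from cells at low oxygen. It lay at 8.10, 8.44, 7.93 and 7.98 in the controls (8.11 ± 0.228, SD, n = 4) and at 7.56, 8.04 and 7.87 with ethanol (7.82 ± 0.241, n = 3). The ethanol arrays overlapped with the lower controls, and the difference was -0.29 (SE 0.165, limma adjusted p = 0.967), or -0.40 to -0.16 with each array left out. Cox4i1, the common isoform, lay at 9.33, 9.02, 9.33 and 9.19 against 9.31, 8.81 and 9.42, a difference of -0.04. Levels of the 2 isoforms cannot be set against each other, because they were read by different probes.

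Cox6a2 and Cox8b are the heart and skeletal muscle isoforms, with Cox6a1 and Cox8a as the common ones. Cox6a2 lay at 6.07, 6.01, 6.23 and 5.99 in the controls and 6.20, 6.22 and 6.02 with ethanol (difference 0.08, and 0.037 to 0.14 with each array left out). Cox8b lay at 4.57, 4.78, 4.56 and 4.67 against 4.81, 4.95 and 4.53 (difference 0.12, from 0.027 without ethanol 3 to 0.234 without ethanol 4). Both had overlapping groups and limma adjusted p of 0.971. The mean of 7 measured striated muscle markers ran from 4.81 to 5.03 in the controls and from 4.74 to 5.02 with ethanol, and the part of muscle RNA in these readings was not tested. The common isoforms Cox6a1 and Cox8a stood at -0.13 and -0.02, and in both the lowest array was an ethanol one and the highest ethanol 4. With single arrays left out Cox6a1 ran from -0.29 (without ethanol 4) to -0.008 (without ethanol 3). The sign of both depended on the probe set, from -0.13 to 0.24 for Cox6a1 and -0.08 to 0.14 for Cox8a.

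Ndufa4, once counted in complex I and now in complex IV, lay at 5.48, 4.94, 5.13 and 5.30 in the controls and 4.94, 5.23 and 5.45 with ethanol. Its difference was -0.01, and 0.004 after quantile normalization. Ndufa4l2, its paralogue known to be induced by the hypoxia factor HIF-1, lay at 5.61, 5.99, 5.97 and 5.75 against 6.14, 5.88 and 5.68, a difference of 0.07. Its 5 probe sets ran from -0.06 to 0.18, and the groups overlapped in the one used.

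**Figure D2:**
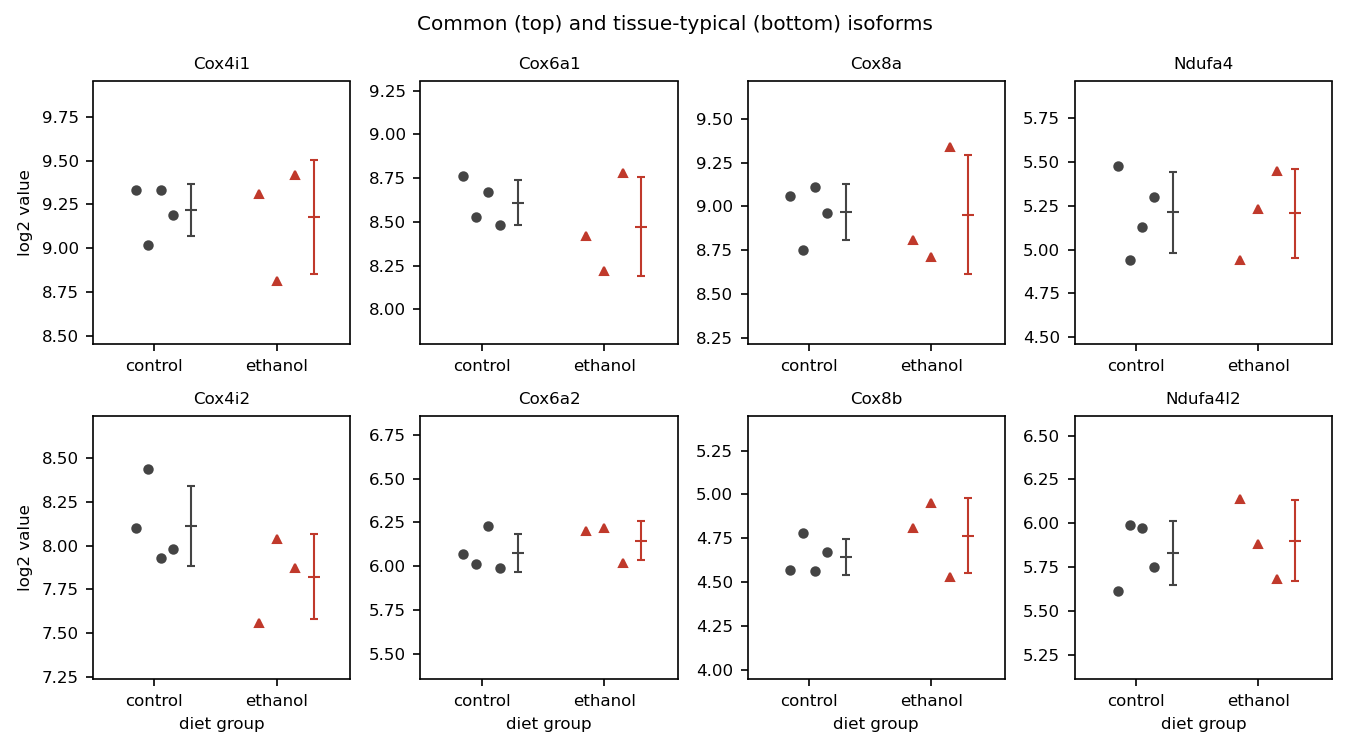
Log2 values of 4 common subunits (top) and their tissue-typical isoforms, or for Ndufa4 its paralogue Ndufa4l2 (bottom), on each array. Controls are circles (n = 4) and ethanol arrays triangles (n = 3), with the group mean and SD beside them. Every panel spans 1.5 log2 units on an axis of its own, so levels are not compared between genes. In all 8 genes the groups overlap, and Cox4i2 has the greatest difference of the 8, at -0.29.

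Complex V, the ATP synthase, had 5 members higher and 4 lower, with a median difference of 0.045. Atp5f1a, the alpha subunit of the catalytic head, lay at 6.70, 6.79, 6.66 and 6.34 in the controls and 5.74, 6.57 and 6.52 with ethanol. Its difference of -0.35 (SE 0.210, limma adjusted p = 0.967) came mainly from ethanol 2 and was -0.082 without that array. Atp5f1b, the beta subunit that carries the catalytic sites, lay at 8.13, 7.29, 7.77 and 8.13 against 7.56, 7.87 and 8.20. The difference was 0.05, and -0.058 after quantile normalization, so it had no stable sign.

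Atp5pb and Atp5pd, of the peripheral stalk that holds the catalytic head still, were among the 3 members that varied most within the diet groups, with Ndufb11. Atp5pb (subunit b) lay at 5.86, 4.96, 5.74 and 6.09 in the controls and at 5.07, 5.12 and 6.44 with ethanol, a difference of -0.12 (95% confidence interval -0.93 to 0.69). Atp5pd (subunit d) lay at 6.27, 5.65, 6.08 and 6.47 against 5.75, 5.80 and 6.80. In both genes control 2, ethanol 2 and ethanol 3 were low and ethanol 4 high, so the spread within a diet exceeded the difference between diets. Atp5pf (subunit F6) lay at 5.66, 5.39, 5.63 and 5.66 against 5.24, 5.23 and 5.80, a difference of -0.16 in its brighter and -0.13 in its other probe set. Atp5po, the stalk protein that confers oligomycin sensitivity, stood at 0.17, with values of 7.56 to 7.91 in the controls and 7.84 to 7.91 with ethanol. The gamma, delta and epsilon subunits of the central stalk (Atp5f1c, Atp5f1d and Atp5f1e) stood at 0.09, 0.14 and 0.10.

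Atp5if1, the inhibitor that stops the ATP synthase from running backwards, had 4 probe sets. The brightest stood at 0.04 and the dimmest, D13122_i_at, at -0.43 (unadjusted p = 0.0255, limma adjusted p = 0.967). The complex I assembly factor Ndufaf3 stood at -0.13 and the complex II assembly factor Sdhaf2 at 0.01. The pseudogene Cox6c-ps1 stood at 0.17.

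The members varied together from array to array more than they varied with diet. The mean over the 56 genes was 5.82, 5.53, 5.69 and 5.74 in controls 1 to 4 and 5.65, 5.71 and 5.96 in ethanol 2 to 4, while the mean over all 4736 genes stayed between 4.95 and 4.97. The group means were 5.69 ± 0.125 (SD, n = 4) and 5.77 ± 0.163 (n = 3). Control 2 was the lowest and ethanol 4 the highest array. Control 2 was the lowest of the 7 in 23 members (41.1%, against 22% of all genes), and ethanol 4 the highest in 26 (46.4%, against 14.1%). The pattern was not limited to the members. Control 2 was lowest in 50% of 14 tricarboxylic acid cycle genes and 54.5% of 11 carrier genes, and ethanol 4 highest in 28.6% and 54.5%. Among 5 assembly and import genes these shares were 40% and 20%, and among 2 regulators both were 0%. In 37 members (66.1%, against 29.7% of all genes) control 2 lay below the mean of the other controls and ethanol 4 above the mean of the other ethanol arrays.

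The complexes did not share this pattern to the same degree. Relative to its own mean over the arrays, complex V stood at -0.26 in control 2, -0.28 in ethanol 2 and 0.36 in ethanol 4. Complex III stood at -0.19, -0.13 and 0.36 on those arrays, and complex I at -0.23, -0.05 and 0.23. Complex IV had the narrowest range, at -0.12, -0.03 and 0.14, and whether the complexes differ in this was not tested. After the group means were subtracted, 42 of the 56 members had a positive and 14 a negative correlation with the mean of the other members over the 7 arrays. All 9 complex V and all 4 complex III members were positive, as were 18 of 24 in complex I and 8 of 14 in complex IV. The most closely aligned were Atp5f1e, Ndufa5 and Ndufb5 (0.98, 0.96 and 0.95), and the most opposed Ndufa6, Ndufb2, Ndufa4l2 and Cox8b (-0.96, -0.96, -0.90 and -0.83). These counts have no share over all genes beside them. Taken pair by pair, the same deviations were positively correlated in 60.8% of 1540 pairs of members, with a median of 0.24. Over all pairs of the 4736 genes these values were 50.6% and 0.0099. All of these correlations share the same 7 arrays and are a description.

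**Figure D3:**
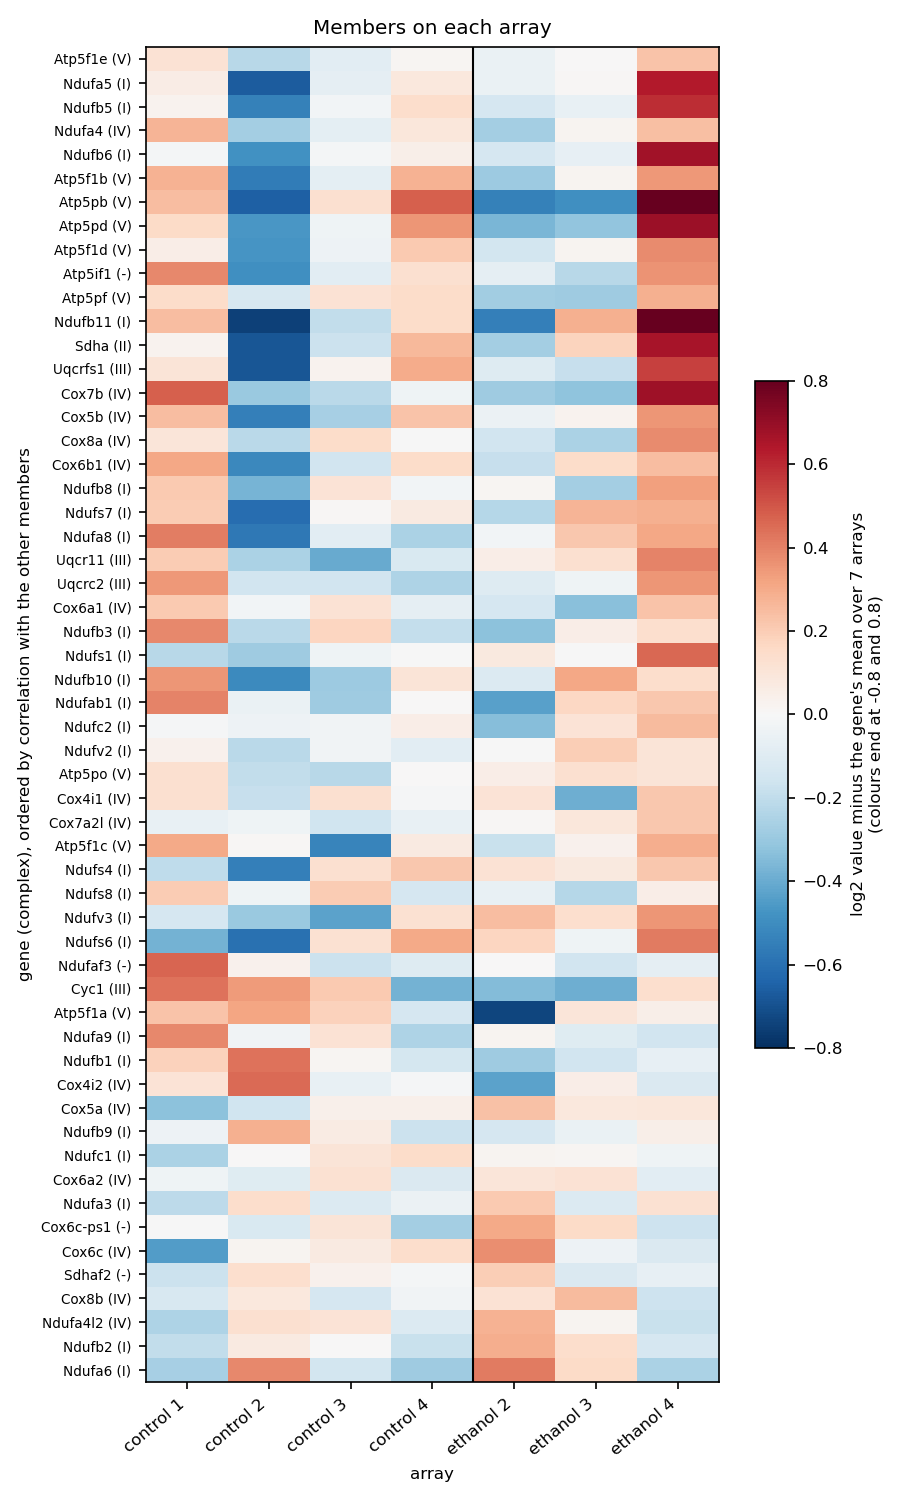
Log2 value of each of the 56 genes on each array minus that gene's mean over the 7 arrays, in colour, with the complex in brackets and the rows ordered by correlation with the other members. The upper rows are blue in control 2 and red in ethanol 4, and the lowest rows, such as Ndufa6 at 5.35 in control 2 and 4.71 in ethanol 4, run the other way.

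The spread of all values on an array moved with this pattern. The SD of log2 values was 1.40, 1.29, 1.36 and 1.44 in the controls and 1.34, 1.39 and 1.46 with ethanol. Control 2 thus had both the narrowest spread and the lowest member mean, and ethanol 4 both the widest and the highest. With every array scaled to 1 spread the member means still ran from 5.58 (control 2) to 5.89 (ethanol 4). Control 2 was still the lowest array in 21 members (37.5%, against 22.6% of all genes) and ethanol 4 the highest in 18 (32.1%, against 12.6%). In bulk RNA, fewer cells of a type and less RNA per cell cannot be told apart. The array means of 3 macrophage markers ran from 7.03 to 7.62 in the controls and 7.28 to 7.68 with ethanol, and those of 6 fibroblast or smooth muscle markers from 5.58 to 6.15 and 5.45 to 5.59. The part of other cells in the members' values was not tested.

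**Figure D4:**
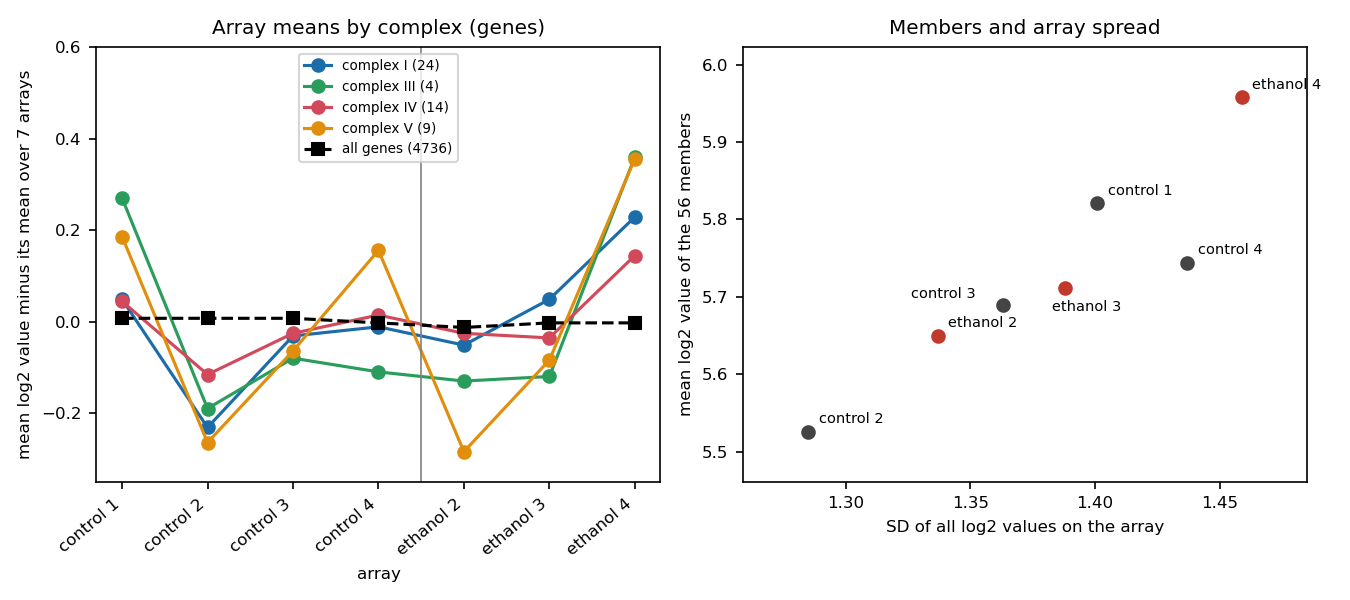
Left, the mean log2 value of the members of complexes I, III, IV and V and of all genes on each array, minus its mean over the 7 arrays. Right, the mean of the 56 members against the SD of all log2 values on each array (black, control; red, ethanol), where control 2 lies at 5.53 and ethanol 4 at 5.96.

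Genes of the neighbouring mitochondrial pathways did not pass the test either. The tricarboxylic acid cycle and pyruvate entry had 14 measured genes, split into 7 above and 7 below the controls. Their median difference was 0.0068, and 0 were past limma's adjusted p. At unadjusted p under 0.05 there was 1 of the 14, where 4.58% of all probe sets were. Cs, the citrate synthase gene, lay at 4.79, 4.73, 4.65 and 4.94 in the controls and 4.08, 4.66 and 4.60 with ethanol, a difference of -0.33. Idh3g, a subunit of isocitrate dehydrogenase, stood at 0.21. Pdk4, the kinase that shuts off pyruvate dehydrogenase, lay at 4.89, 4.89, 4.44 and 3.90 against 3.79, 4.18 and 3.89. Its difference of -0.58 (SE 0.239, unadjusted p = 0.0377, limma adjusted p = 0.967) was the greatest in that list, and control 4 lay within the ethanol range.

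Of 11 mitochondrial carrier, pore and uncoupling protein genes, 8 stood above the controls and 3 below, the median being 0.22, and 0 past the test (0 at unadjusted p under 0.05). The adenine nucleotide carriers, which exchange ATP for ADP across the inner membrane, followed the array pattern of the complexes. Slc25a4 lay at 5.65, 4.06, 5.56 and 5.83 in the controls and 5.17, 5.40 and 6.11 with ethanol, and Slc25a5 at 7.21, 6.23, 7.22 and 7.64 against 7.06, 7.03 and 7.80. In both, control 2 was lowest and ethanol 4 highest, and the differences of 0.29 and 0.22 were smaller than the spread among the controls. Ucp3, an uncoupling protein best known from muscle, stood at 0.26. Only 2 regulators were measured, the nuclear receptor genes Esrra and Ppara, at -0.07 and 0.26. Among 5 assembly and import genes 2 stood above and 3 below the controls, the prohibitin gene Phb2 at 0.12 and the import receptor gene Tomm20 at -0.02. In limma, 0 of these 7 genes passed, with 0 at unadjusted p under 0.05.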

How the data were processed

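Biotin-labelled total RNA of 7 rats was hybridised to Affymetrix arrays, per the labels' protocols. The deposited table holds 1 value per probe set and array. The deposited numbers were taken to be on a log2 scale because they range from 1.65 to 12.84 with near-equal array means (4.758 to 4.760). The authors' summarisation and normalization are not given in the sources used. No detection calls were used, precision is limited by the number of arrays, and probe sets ending in _f_at or _s_at can read related transcripts.

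After removal of 59 control features, 8740 probe sets were tested. Of these, 7006 had 1 gene symbol in the platform annotation, 308 several and 1426 none. Probe sets with several symbols named no gene. All 56 member symbols matched RefSeq (GRCr8) by Entrez identifier. Every probe set was fitted with limma 3.58.1 in R 4.3.3 with diet group as its term, and its two-sided p-values received Benjamini-Hochberg adjustment across the 8740. The p-values weigh the diet difference against the variation among arrays of the same diet, moderated over all probe sets. That variation holds differences between animals and between arrays together. Members and lists were chosen with earlier results of these data known, so lists are described by counts and medians and not tested. Named with values per array were the first 2 measured core subunits of each complex, the 6 lowest p in each direction and the 3 most variable members. Tissue-typical isoforms, with Ndufa4l2 listed among them, were also named, with their partners. In the related lists these were the first 2 genes and the lowest p. Others (Ndufa9, Ndufs6, Uqcrc2, Atp5po and members given by difference alone) were chosen after their values were seen, and the promoter windows shown after their matches were.

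The fit was repeated after quantile normalization or median centring, with 2 filters on dim features, under other variance settings (trended and robust, or unmoderated), with array weights, with the replicate number as a block, without each array in turn, and with other probe set choices. Array spread as a covariate and arrays scaled to 1 spread were added after seeing the data. The fit was tested on simulated data. Plots used matplotlib 3.10.9 (Python 3.11.15).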

Additional observations from a re-analysis of the deposited data

Results flagged for a closer look

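In 63 measures (the 56 members and 7 means over groups of members), 3 had a control array far from the other controls, and chance alone gives about 1 in 20. Atp5pf, a peripheral stalk subunit of the ATP synthase, stood at 5.39 in control 2, with the other controls between 5.63 and 5.66. Ndufb6, an accessory subunit of complex I, stood at 4.81 in control 2, with the others between 5.28 and 5.34. Uqcrc2, a core subunit of complex III, stood at 6.03 in control 1, with the others between 5.44 and 5.53. Leaving out ethanol arrays moved Atp5pf from -0.35 (without ethanol 4) to -0.066 (without ethanol 3).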

How the results depend on the processing

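The count of members past limma's threshold was 0 under every alternative run, with a lowest adjusted p of 0.275 under array weights and 0.376 when single arrays were left out. Members at unadjusted p under 0.05 numbered 9 with the replicate block (16.1%, against 8.12% of all probe sets), 4 with array weights (7.14% against 11.8%) and 4 without control 4 (7.14% against 9.03%). The median difference over the members stayed above 0 in all alternatives run, from 0.052 with array spread as a covariate to 0.14 with the replicate block, and from 0.014 to 0.17 with each array left out. Control 1 is the only array with replicate number 1, so under the block it drops out of the diet difference. The block therefore gave the same median as leaving out control 1. Over all probe sets the count of 13 was 0 without variance moderation (367 at unadjusted p under 0.05), 23 with the replicate block, and 13 to 16 with single arrays left out. The titles share replicate numbers 2, 3 and 4, and the deviations of same-numbered arrays correlated at 0.43, 0.067 and 0.43. Ethanol 2 and ethanol 4 correlated best with the control of their own number. Ethanol 3 correlated best with control 1, at 0.10. The labels state no pairing, so the main fit used none, and whether the arrays are paired was not tested.

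Of 26 genes named by rule, the sign held in 161 of 182 values with an array left out and in 290 of 307 values under the other alternatives. The second count includes signs that could not change. The filters on dim features and the variance settings leave a gene's difference as it was, and so do other probe set choices for genes with 1 probe set. The cause of the reversals was not tested. Quantile normalization gave -0.058 for Atp5f1b and 0.004 for Ndufa4, and median centring 0.011 for Atp5pd and 0.005 for Ndufa4. The replicate block gave 0.050 for Atp5pd, 0.008 for Cox8a, 0.081 for Ndufa4 and -0.003 for Ndufa4l2, the same values as without control 1. Averaging the probe sets of a gene gave 0.059 for Cox6a1, 0.009 for Cox8a and 0.077 for Ndufs8, and its dimmest probe set 0.073 for Cox6a1, 0.326 for Ndufs8 and -0.316 for Uqcr11. Array weights gave -0.076 for Uqcrfs1. For Atp5f1b, array spread as a covariate gave -0.088 and scaling to 1 spread -0.004. With each array left out, Atp5f1b ran from -0.135 to 0.202, Atp5pb from -0.570 to 0.116, Atp5pd from -0.341 to 0.181, Cox4i1 from -0.158 to 0.147, Cox8a from -0.215 to 0.100, Ndufa4 from -0.129 to 0.125, Ndufa4l2 from -0.049 to 0.180 and Uqcrfs1 from -0.082 to 0.281.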

Other observations

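Of the members, 28 had more than 1 probe set, and these allow the same transcript to be read more than once. After the group means were subtracted, the brightest and the next brightest probe set of a gene were positively correlated over the 7 arrays in 20 of the 28 genes and negatively in 8, with a median of 0.59. The closest pairs were those of Atp5f1e (0.98), Uqcrfs1 (0.92), Cox5b (0.87), and Ndufs4 and Ndufa4l2 (each 0.85). Both diet differences had the same sign in these genes other than Ndufa4l2. The most opposed were those of Cox6c (-0.71), Ndufa6 (-0.53) and Cox8a (-0.49). The 2 probe sets of Ndufa6 had near-equal differences, 0.18 and 0.17, but lay at 5.35 and 4.65 in control 2, where the first was high and the second low. In 13 of the 28 genes the probe sets included differences of both signs. The genes in this paragraph were picked after their values were seen.

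A further 7 probe sets carried a symbol of this family together with other symbols, and none was assigned to a gene. Their diet differences ran from -0.38 (Cox7a2 with another symbol) to 0.57 (Cox5a with another symbol), with a lowest limma adjusted p of 0.967.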
